A study of Mus musculus with 8 samples.

Results

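The miR-34 and miR-449 microRNAs form a family defined by a shared seed, and 4 of its 5p arms (mmu-miR-34a-5p, mmu-miR-34b-5p, mmu-miR-34c-5p and mmu-miR-449a-5p) were taken by name from the 1881 mouse miRNAs on the array. Plasma of female NMRI mice aged 3 months was profiled on 8 one-colour Agilent miRNA arrays, each for a pool of 3 mice (RNA of 300 µl plasma). The 3 DOX pools came from mice given doxorubicin, an anthracycline that damages DNA, into the tail vein in saline as 4 doses of 3 mg/kg, one every other day. The 3 IMB pools came from mice given imatinib, a tyrosine kinase inhibitor, by mouth in distilled water at 100 mg/kg per day for 9 days. The 2 CTRL pools came from mice that received the solvents only. Plasma was taken on the day after the last dose, and all groups shared strain, sex and age. The labels call the pools biological replicates, and the spread between pools hides the spread between the 3 mice inside each.

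A microRNA guides a silencing complex to messenger RNAs that pair with its seed, so miRNAs with the same seed can share targets. The miR-34 genes are known as direct transcriptional targets of the tumour suppressor p53, which DNA damage activates, and their products repress cell cycle and survival genes. miR-34a is broadly expressed, whereas miR-34b, miR-34c and the miR-449 miRNAs are known mainly from multiciliated epithelia and the testis. Plasma holds little cellular material, and its miRNAs come from many tissues and blood cells.

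The mature sequences show what unites the family and where its members part. RefSeq (GRCm38.p6) gave a mature sequence for 3 of the 4 members, all but mmu-miR-34c-5p, and for 1608 of the 1881 array miRNAs. Capitals mark the seed, bases 2 to 8 from the 5′ end. A further array entry with the same seed, mmu-miR-449c-5p, is shown beside them.
mmu-miR-34a-5p: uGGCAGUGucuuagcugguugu
mmu-miR-34b-5p: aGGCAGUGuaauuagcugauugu
mmu-miR-449a-5p: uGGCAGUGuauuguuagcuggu
mmu-miR-449c-5p: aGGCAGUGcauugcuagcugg
These 4 were the only ones of the 1608 with that seed. Read from the 5′ end with no gap, miR-34a-5p matched miR-449a-5p at 15 of 22 positions, miR-34b-5p at 11 of 22 and miR-449c-5p at 12 of 21. The other arms carry different seeds, as in miR-34a-3p, processed from the far side of the same hairpin.
mmu-miR-34a-3p: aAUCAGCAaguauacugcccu
The 102-base Mir34a hairpin lies on the plus strand at chr4:150068454-150068555, and capitals mark the 5p arm within it.
Mir34a hairpin: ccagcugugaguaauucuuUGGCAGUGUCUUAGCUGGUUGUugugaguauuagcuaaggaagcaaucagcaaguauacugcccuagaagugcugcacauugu
Mir34b (chr9:51103562-51103645) and Mir34c (chr9:51103034-51103110) lie on the minus strand with 451 bases between them. Mir449a (chr13:113037534-113037624) and Mir449c (chr13:113035983-113036091) lie on the plus strand with 1442 bases between them.

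miR-34a-5p rose in DOX plasma. It stood 6.24-fold higher in DOX than in CTRL plasma and ranked first of 294 tested miRNAs by p. In IMB plasma it did not pass the test, with a level 1.05-fold that of CTRL. It was also the only member detected by the spot rule, which calls a probe detected where over 50% of its kept spots are well above background. That rule called it on all 8 arrays, and Agilent's own flag did too, so it did not enter the test through the DOX pools alone. miR-34b-5p, miR-34c-5p and miR-449a-5p were detected by the spot rule on no array.

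The processed signal of miR-34a-5p, a background-subtracted intensity averaged over its 2 probes and not scaled between arrays, was 69.99, 99.02 and 124.6 in DOX pools 1 to 3. In IMB pools 1 to 3 it was 18.26, 22.79 and 18.79. In CTRL pools 1 and 2 it was 20.21 and 20.68. Every DOX pool thus lay above every IMB and CTRL pool, and the IMB and CTRL pools overlapped. Agilent's total gene signal, which sums probe signals on its own scale, kept that arrangement, with 29.68, 42.0 and 52.86 in DOX, 7.744, 12.37 and 7.97 in IMB, and 8.572 and 11.46 in CTRL. The authors' deposited table gave log2 values of 5.44, 5.6 and 6.06 in the DOX pools. Its IMB values were 3.58, 2.6 and 2.87, against 3.18 and 2.86 for CTRL, so the same separation held there.

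**Figure D1:**
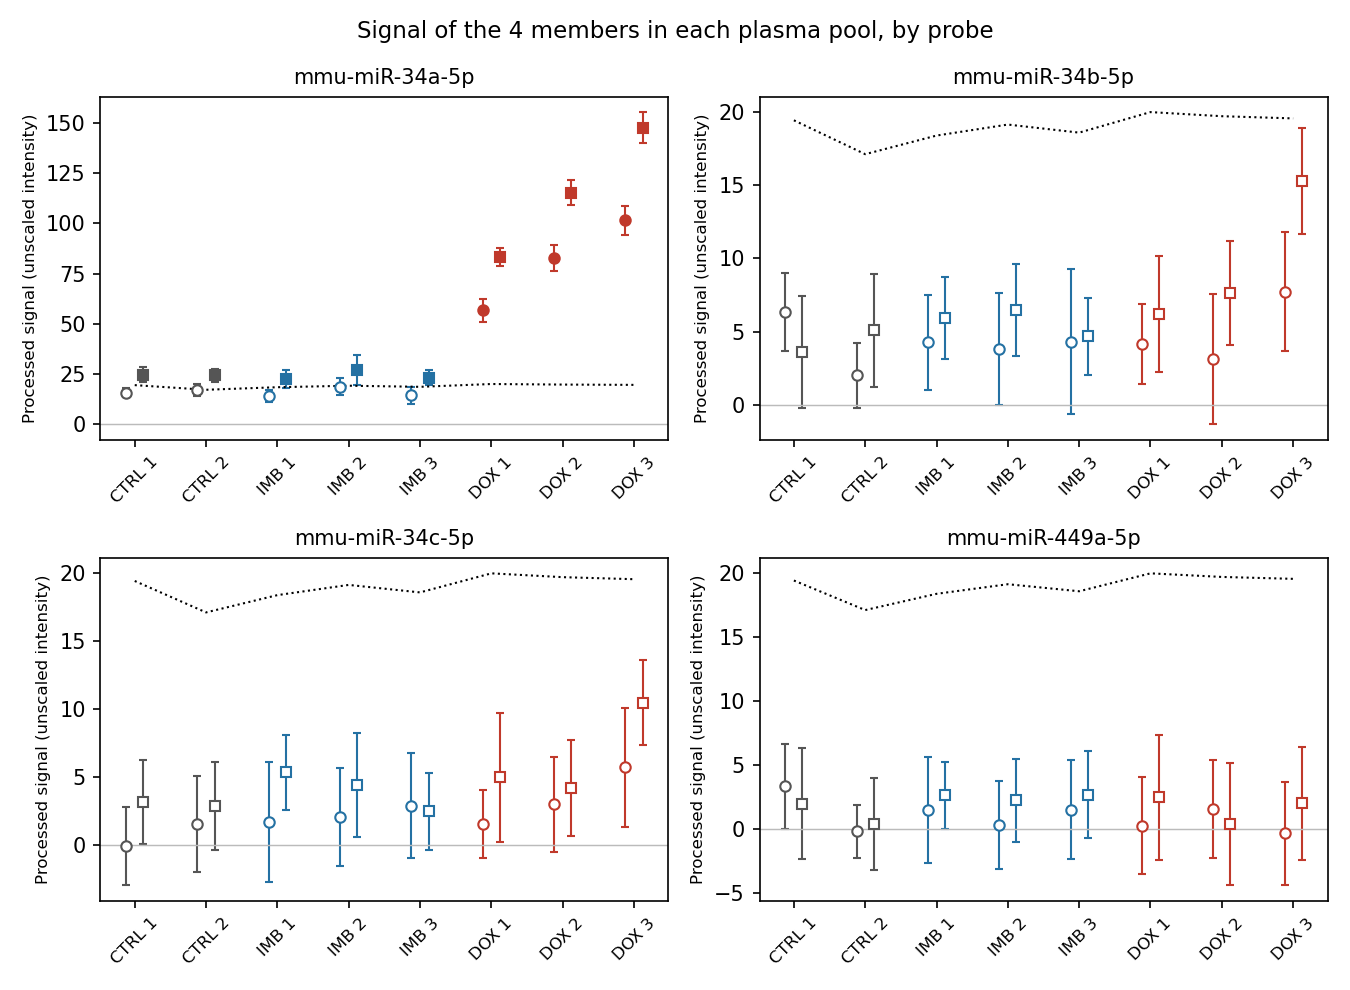
Processed signal (unscaled intensity) of the 4 members in each plasma pool. Circles and squares are the 2 probes of a miRNA, bars the SD over its spots on that array, filled symbols probes detected by the spot rule, and the dotted line joins the lowest detected probe of each array; panels have different vertical scales. Both miR-34a-5p probes are high in all 3 DOX pools, while the other 3 members stay under the dotted line on every array.

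Both probes of miR-34a-5p showed the difference. Probe A_54_P2498 read 56.71, 82.68 and 101.5 in DOX, 13.88, 18.67 and 14.36 in IMB, and 15.74 and 16.99 in CTRL. Probe A_54_P2499 read 83.27, 115.4 and 147.8 in DOX, 22.64, 26.91 and 23.22 in IMB, and 24.68 and 24.37 in CTRL. After scaling, DOX exceeded CTRL by 2.68 (A_54_P2498) and 2.62 (A_54_P2499) on the log2 scale. Outside DOX the miRNA sat close to the limit of detection, since only A_54_P2499 was detected in the IMB and CTRL pools. The lowest detected probe on each array read between 17.11 and 19.98. In IMB pools 13 of 30, 16 of 29 and 12 of 30 kept spots were well above background, and in CTRL pools 14 of 28 and 18 of 28, against every kept spot in each DOX pool.

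Each array was then scaled to the 75th percentile of the 454 probes detected on all arrays. The log2 scaled level of miR-34a-5p was 6.53, 6.81 and 7.04 in DOX, with a mean of 6.79 ± 0.25 (SD, n = 3). It was 4.71, 3.91 and 4.05 in IMB, with a mean of 4.22 ± 0.43 (SD, n = 3), and 4.25 and 4.06 in CTRL, with a mean of 4.15 ± 0.13 (SD, n = 2). IMB pool 1, the lowest IMB pool before scaling, was the highest after it, because its 75th percentile (195.8) was the lowest of the 8 arrays. The DOX pools stood apart from the rest on either scale.

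**Figure D2:**
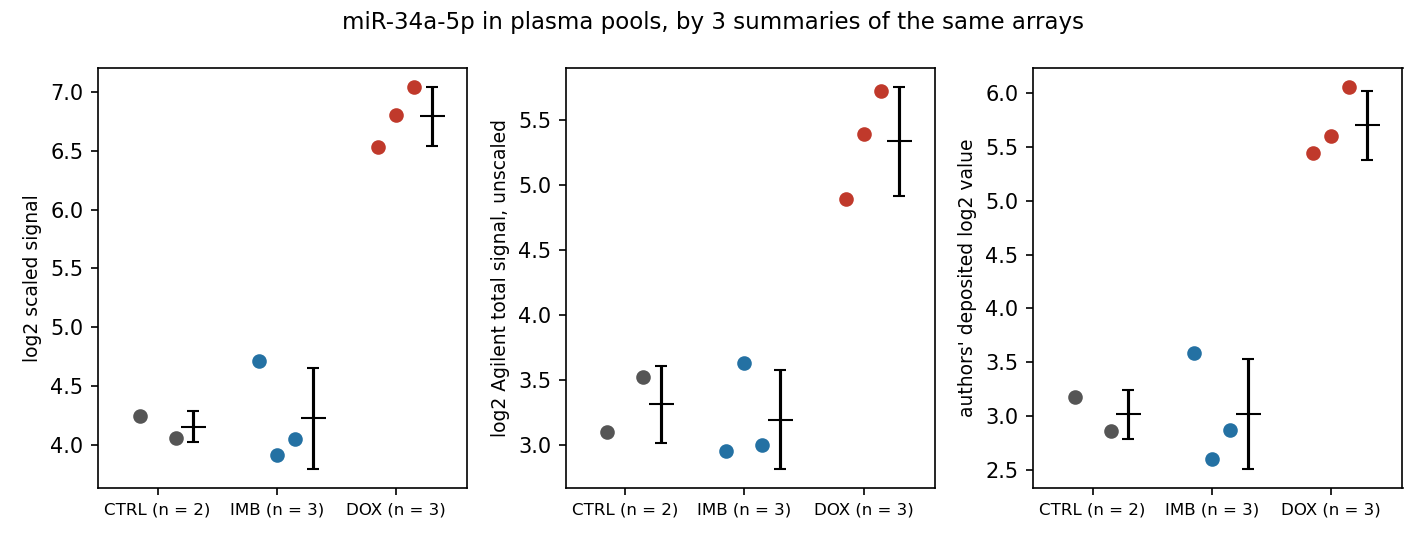
miR-34a-5p in each pool by 3 summaries of the same arrays: log2 scaled signal, log2 of Agilent's unscaled total signal, and the authors' deposited log2 value. Points are pools, and the bar beside them is the group mean with its SD (CTRL n = 2, IMB n = 3, DOX n = 3). The DOX pools lie above all other pools in each panel, with no overlap.

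The first comparison asked how doxorubicin altered plasma miRNAs. DOX minus CTRL was 2.64 on the log2 scale (SE 0.27, 95% interval 2.01 to 3.28), with an adjusted p of 0.00955 by limma with Benjamini-Hochberg adjustment over 294 miRNAs. It was the only miRNA called in that comparison, where 0.340% of tested miRNAs passed, all of them higher. An exact permutation of the pools gave p = 0.1, the smallest that 3 against 2 allows. The DOX and CTRL pools did not overlap for miR-34a-5p, as for 20.1% of tested miRNAs that were higher in DOX. The difference was 2.43 between pools in slide row 1 (2 DOX against 1 CTRL) and 2.98 in row 2 (1 against 1).

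The size of the difference was steadier than its test. The adjusted p depended on 4 tested miRNAs that were at the floor on all arrays: with them left out of the variance estimate, a choice made after the values were seen, limma gave an adjusted p of 0.000483. With them kept, the call was lost without CTRL pool 1 (2.73, adjusted p = 0.272 by limma), CTRL pool 2 (2.55, 0.196), DOX pool 2 (2.63, 0.0834) or DOX pool 3 (2.52, 0.068). It was also lost with the replicate number as a block (2.62, adjusted p = 0.148 by limma), with no filter on undetected miRNAs (2.64, 0.212) and with a red cell index, miR-451a minus miR-23a-3p, as a covariate (2.38, 0.251). With them left out, 24 of 26 alternatives kept the call, and it was lost without CTRL pool 1 (0.0556) or CTRL pool 2 (0.114). Background correction by normexp, which adds an offset of 50 to signals, gave a smaller difference of 1.26. With no scaling the difference was 2.22, and Agilent's unscaled total signal was 4.08-fold higher in DOX. The 75th percentiles of the DOX arrays (212.6, 248.6 and 266.5) all lay below those of the CTRL arrays (299.8 and 349), so scaling widened the difference.

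The second comparison asked the same of imatinib. IMB minus CTRL for miR-34a-5p was 0.07 on the log2 scale (SE 0.27), with an adjusted p of 0.965 by limma. The 95% interval ran from -0.56 to 0.71, so these pools do not exclude changes of either sign within it. In that comparison 0.680% of tested miRNAs passed, namely miR-7058-5p (2.39) and miR-144-3p (0.82), and no member. The sign turned to -0.04 with no scaling, to -0.16 without IMB pool 1 and to -0.02 without CTRL pool 2.

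The drugs were also set against each other, which tests whether their effects on miR-34a-5p differ. IMB minus DOX was -2.57 on the log2 scale (SE 0.24, 95% interval -3.14 to -2.0), or 5.94-fold lower in IMB, with an adjusted p of 0.00282 by limma. All 3 IMB pools were below all 3 DOX pools, as for 9.18% of tested miRNAs, and an exact permutation gave p = 0.1, the smallest possible. In this comparison 1.70% of tested miRNAs passed, 5 of 294. The other 4 were miR-144-3p, a red cell miRNA (higher in IMB by 1.20), miR-7058-5p (higher by 1.25), miR-202-3p (higher by 0.58) and miR-205-5p, an epithelial miRNA (-1.44). The call on miR-34a-5p was lost once that index entered the fit (-2.09, adjusted p = 0.535 by limma). That index ran from 2.69 to 3.15 in DOX, from 3.90 to 4.45 in IMB and from 3.18 to 3.84 in CTRL. The DOX pools lay below all IMB and all CTRL pools on it, so doxorubicin and the index cannot be told apart, either against IMB or against CTRL.

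**Figure D3:**
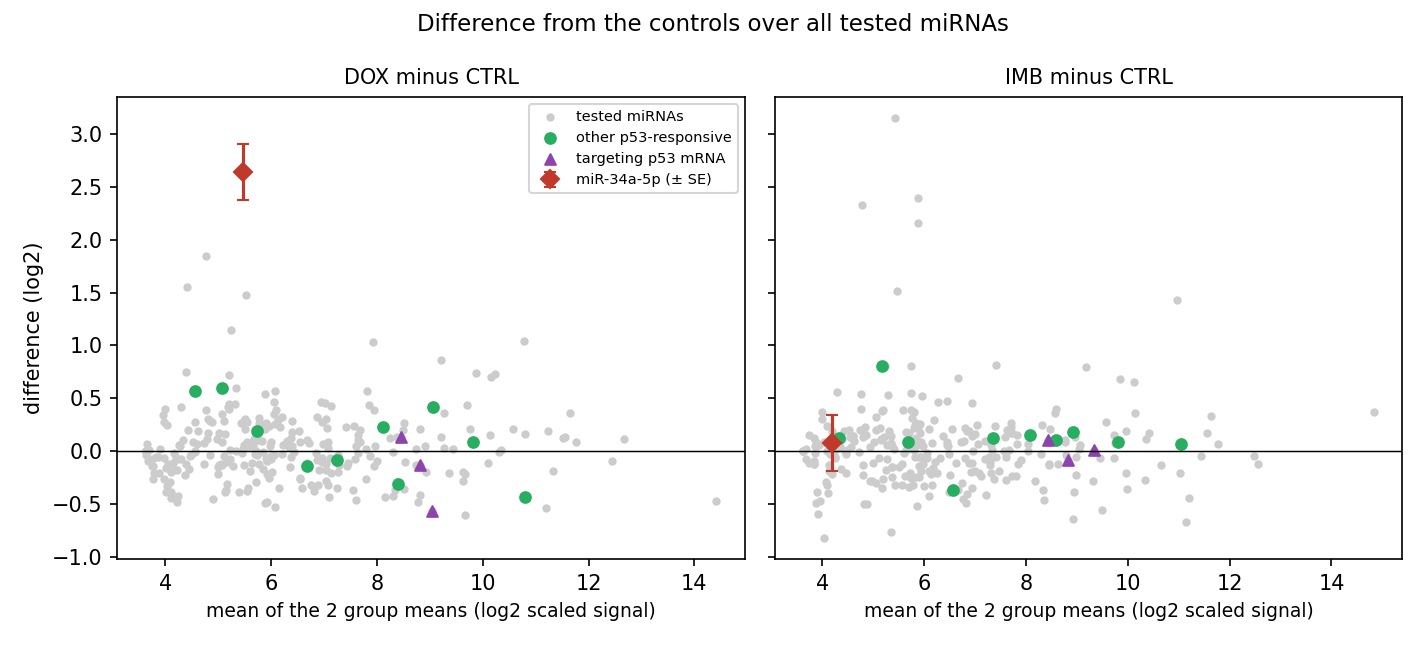
Difference from CTRL (log2) against the mean of the 2 group means (log2 scaled signal) for the 294 tested miRNAs, for DOX (left) and IMB (right). The diamond is miR-34a-5p with its SE, circles are other p53-responsive miRNAs and triangles miRNAs that target p53 mRNA. miR-34a-5p has a difference of 2.64 in DOX and 0.07 in IMB, while the marked lists lie between -0.57 and 0.80.

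miR-34b-5p, made with miR-34c from one primary transcript, gave weak signals throughout. Its processed signal was 5.18, 5.40 and 11.49 in DOX, 5.12, 5.16 and 4.50 in IMB, and 4.99 and 3.56 in CTRL. Every one of these values lay under the lowest detected probe of its array, and no order is read from them. Agilent's flag called the miRNA detected in DOX pool 3 only, with a total gene signal of 3.24, and the spot rule called it on no array. In that pool probe A_54_P2446 read 15.3 with all 15 spots positive and significant but only 1 well above background, and A_54_P2445 read 7.72. The authors' deposited table likewise held 2.20 for DOX pool 3 and values from -3.32 to -3.20 on the other 7 arrays.

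miR-34c-5p was also under the limit of detection. It read 3.27, 3.6 and 8.10 in DOX, 3.54, 3.27 and 2.71 in IMB, and 1.55 and 2.23 in CTRL. In DOX pool 3 probe A_54_P1248 read 10.5 with all 15 spots positive and significant but 0 well above background, and A_54_P1247 read 5.72. No array detected miR-34c-5p by either rule, and no order is read from these values either.

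miR-449a-5p, from a cluster inside the Cdc20b gene, was detected on no array by either rule. It read 1.37, 0.97 and 0.84 in DOX, 2.05, 1.27 and 2.11 in IMB, and 2.66 and 0.12 in CTRL. Negative control spots averaged 0.70 to 1.55 per array with SDs of 3.33 to 4.38. Those SDs are of single spots, so they do not give the spread of a mean over many spots. From 10% (CTRL pool 2) to 46.7% (CTRL pool 1) of the miRNA's spots were positive and significant, and the next lowest share was 23.3% (DOX pool 3). Over probes detected on no array that share was 15.2% to 18.4%, so only CTRL pool 2 lay below it. The share was 40% to 93.3% for miR-34b-5p and 28.6% to 76.7% for miR-34c-5p, above that of undetected probes on every array.

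The reported fit did not test these 3 members, since no group detected any of them by the spot rule on all of its arrays. Each was also under the floor of 12.3 scaled units on all arrays, and no order is read from values there. Closest to it was miR-34b-5p in DOX pool 3, at 12.1. Only the alternative with no filter fitted them, with every value set to the floor. No fold is given, since neither group of any pair was detected. The same held for the 7 further entries of the family (miR-34a-3p, miR-34b-3p, miR-34c-3p, miR-449a-3p, miR-449b, miR-449c-5p and miR-449c-3p), none detected on any array by either rule. miR-34a-3p, the partner strand of the raised arm, read -1.18, -1.36 and -0.97 in DOX, beside -2.71 to -0.30 in the other pools. Of the miR-34a hairpin's products, only the 5p arm was detectable in plasma.

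Other miRNAs reported to respond to p53 did not pass the test with miR-34a-5p. Of 12 listed, 11 are on the array, 10 were tested and 0 passed in any comparison by limma, with 1, 1 and 2 at an unadjusted p under 0.05 in DOX minus CTRL, IMB minus CTRL and IMB minus DOX. Over all tested miRNAs the shares under that unadjusted value were 9.18%, 10.2% and 11.6%. With the reference miRNAs miR-24-3p and miR-23a-3p as the scale, 1 of the 10 passed in IMB minus DOX. The median DOX minus CTRL difference of the 10 was 0.14 on the log2 scale, beside 0.00 for all 294, with 6 higher and 4 lower. That median turned to -0.28 with no scaling, where the median of all tested miRNAs moved to -0.38, and to -0.04 with that reference scale, where it moved to -0.14. The list holds miR-192-5p, also a liver marker here, and miR-141-3p and miR-200c-3p, also epithelial markers. The largest differences in DOX were 0.59 for miR-194-5p (adjusted p = 0.576 by limma), 0.57 for miR-141-3p (0.515) and 0.41 for miR-192-5p (0.577), at the upper end. At the lower end were miR-16-5p, a cell cycle regulator abundant in red cells (-0.44, 0.577), and miR-15a-5p from the same cluster (-0.31, 0.50). In IMB the median was 0.12, with 9 of 10 higher and miR-194-5p at 0.80 (adjusted p = 0.403 by limma).

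Of 6 listed miRNAs that target p53 mRNA, 3 were tested and 0 passed in any comparison by limma, with 1, 0 and 1 at an unadjusted p under 0.05. In DOX minus CTRL, miR-125b-5p differed by -0.14, miR-25-3p by -0.57 and miR-30d-5p by 0.14. Their DOX median was -0.14 and their IMB median 0.01.

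The miRNAs whose pattern over the 8 arrays lay nearest to miR-34a-5p were found by the root-mean-square distance between log2 values centred on the control mean. miR-205-5p was nearest at 1.04, followed by miR-6931-5p at 1.21, miR-429-3p at 1.27, miR-193a-3p at 1.27 and miR-141-3p at 1.28, beside a median of 1.66 over all tested miRNAs. miR-205-5p read 8.44 ± 0.07 in DOX (SD, n = 3), 7.0 ± 0.49 in IMB (SD, n = 3) and 7.41 ± 0.20 in CTRL (SD, n = 2), on the log2 scale. Its DOX minus CTRL difference was 1.03 (SE 0.27, adjusted p = 0.263 by limma), smaller than that of miR-34a-5p. None of the 5 passed in DOX minus CTRL, and miR-205-5p alone passed in IMB minus DOX. In the same order, their IMB minus CTRL differences were -0.41, 0.19, 0.21, 0.56 and 0.13, beside 0.07 for miR-34a-5p, and none passed there. The distance rests mainly on the DOX pools, where miR-34a-5p moved most. A miRNA higher under both drugs, such as miR-193a-3p (0.75 in DOX), can thus rank near.

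Epithelial markers stood higher in the DOX than in the CTRL pools, as miR-34a-5p did. Of 6 listed, 5 were tested, and all 5 were higher in DOX than in CTRL with no overlap, beside 20.1% of all tested miRNAs. By limma 0 passed, and 4 had an unadjusted p under 0.05, beside 0.340% and 9.18% of all tested miRNAs. Against DOX, the IMB mean was lower for all 5. Only 2 of them had no overlap there, beside 9.18% of all tested miRNAs, whereas miR-34a-5p had none. The log2 of the list's summed scaled signals was 9.11 to 9.19 in DOX, 8.06 to 8.59 in IMB and 8.28 to 8.41 in CTRL. On every array 5 or 6 of the 6 were detected. Such a sum is weighted towards the brightest member of a list. In DOX pool 1, miR-205-5p alone read 8.52 on the log2 scale, beside 9.11 for the epithelial sum. The levels of the other lists are sums of the same kind, and miR-451a alone read 14.55 in that pool, beside 14.62 for the red cell sum. Red cell markers ran the other way, at 14.01 to 14.6 in DOX, 14.9 to 15.2 in IMB and 14.3 to 15.1 in CTRL, with miR-144-3p the member that passed in IMB. Muscle markers were 6.90 to 8.32 in DOX, 6.72 to 10.1 in IMB and 6.02 to 6.10 in CTRL, and 0 of 3 tested passed by limma. All 3 were also higher in DOX than in CTRL with no overlap, by 1.48 to 1.85. They were higher in IMB than in CTRL too, by 2.16 to 3.16. Liver markers were 10.8 to 11.3, 10.1 to 11.6 and 10.3 to 10.6 in DOX, IMB and CTRL, and myeloid and platelet markers 10.8 to 10.97, 10.2 to 10.6 and 10.6 to 10.9. The part of these sources in the miR-34a-5p result was not tested, and in plasma more RNA per cell and more cells releasing it cannot be told apart.

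**Figure D4:**
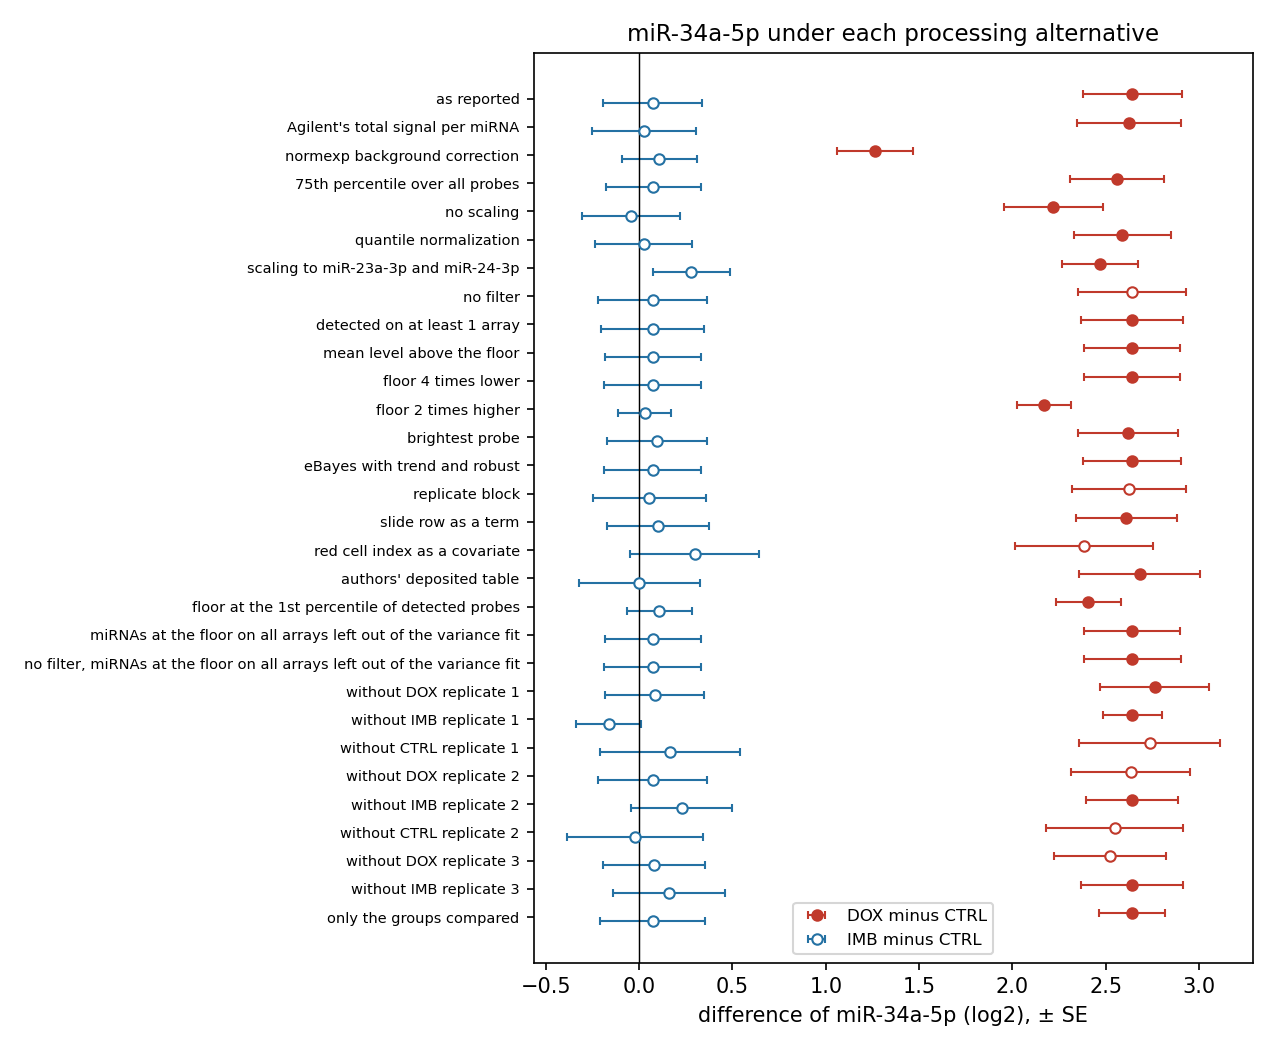
Difference of miR-34a-5p (log2, ± SE) for DOX minus CTRL and IMB minus CTRL as reported and under each alternative. Filled points have an adjusted p under 0.05. DOX minus CTRL stays between 1.26 and 2.76, and IMB minus CTRL between -0.16 and 0.30.

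Across arrays, 258 to 339 miRNAs were detected, no spot was saturated, and the unscaled 75th percentile ran from 195.8 to 425.4. All 8 arrays lay on 1 slide. With 8 arrays, precision is limited by their number.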

How the data were processed

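Per the labels, intensity was extracted with Agilent Feature Extraction 11.5.1.1. The deposited scanner files hold linear intensity, background-subtracted and not scaled between arrays. The authors' deposited table holds log2 values, made in a way that the sources used here do not state. Processed signals were averaged over non-outlier spots of each probe. Arrays were scaled to their 75th percentile over 454 probes detected on all arrays, probes averaged, floored at 12.3 (the 99th percentile of the 3753 probes detected on no array) and put on the log2 scale. The 294 miRNAs that a whole group or more detected were fitted with limma 3.58.1 in R 4.3.3 (lmFit, eBayes, 2-sided) on all 8 arrays, adjusted by Benjamini-Hochberg per comparison, at a threshold of 0.05. Prior degrees of freedom were 1.60, and 4.65 without the 4 miRNAs at the floor on all arrays.

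The members, lists and named miRNAs were chosen with earlier results of these data known. Named were the members, their family, both p53 lists, miRNAs past the threshold beside a member, and the 5 nearest to miR-34a-5p. The floor was set after miR-34a-5p values were seen, since a higher one (20.9) lay above most of its values outside DOX. Leaving out the 4 miRNAs was first applied to every result after its effect was seen, then withdrawn, and it stands here as an alternative. Of these steps only the limma fit was tried on simulated log2 values, which held no miRNA without variance. Figures were drawn with matplotlib 3.10.9.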

Additional observations from a re-analysis of the deposited data

Results flagged for a closer look

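The effects of the 2 drugs on miR-34a-5p differed from each other by a direct test. IMB minus DOX was -2.57 on the log2 scale, with an adjusted p of 0.00282 by limma, and all 3 IMB pools lay below all 3 DOX pools. Both drug effects are measured against the same 2 CTRL pools. Groups of 2 or 3 pools were too small to look for single pools that stand apart.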

How the results depend on the processing

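DOX minus CTRL for miR-34a-5p kept its sign under all 29 alternatives (1.26 to 2.76) and its call under 22. It fell short of the threshold with no filter (2.64, adjusted p = 0.212 by limma), the replicate block (2.62, 0.148) and the red cell covariate (2.38, 0.251), and without either CTRL pool, DOX pool 2 or DOX pool 3. Leaving out single pools gave 2.52 to 2.76, and the other 4 omissions kept the call. With the miRNAs at the floor on all arrays left out of the variance estimate, 24 of 26 alternatives kept the call, those 3 among them. IMB minus DOX kept its call under 28 of 29 (-2.09 with the red cell covariate did not), and IMB minus CTRL passed under none, turning to -0.043 with no scaling and running from -0.16 to 0.23 without single pools. Whether the replicate numbers pair the samples was not settled. Same-numbered pools correlated at -0.21 to 0.36, with 2 of 7 pairs over 0.1, and other pairs at -0.45 to 0.44, with 5 of 14. These are deviations from means of 2 or 3 pools, which bind the values to each other, so they cannot decide it. The block left 0, 0 and 2 calls in the 3 comparisons.

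Counts of calls moved more. DOX minus CTRL (1 as reported) gave 2 with Agilent's total signal, the floor 4 times lower, the brightest probe or the authors' table, 0 with no filter, the block or the covariate, and 0 to 2 without single pools. IMB minus CTRL (2) gave 0 with scaling over all probes, no scaling, no filter, the block or the covariate, 4 with the brightest probe, 1 with Agilent's signal, normexp, reference scaling, the mean-level filter, the lower floor, trend and robust, the authors' table, the groups compared alone or the floor miRNAs left out (with or without the filter), and 0 to 18 without single pools, 18 without IMB pool 1. IMB minus DOX (5) gave 3 with scaling over all probes, detection on at least 1 array, either higher floor or slide row, 2 with no scaling, the groups compared alone or no filter with the floor miRNAs left out, 10 with reference scaling, 0 with the covariate, and 2 to 19 without single pools, 19 without IMB pool 1. With no filter it gave 1545, because 1515 of 1881 miRNAs were then at the floor on all arrays and had no variance. In that setting 1 of 11 p53-responsive miRNAs and 4 of 6 that target p53 mRNA passed in IMB minus DOX, beside those 1545 of 1881. miR-34b-5p, miR-34c-5p and miR-449a-5p passed there too, each with a difference of 8.9e-16 and an adjusted p of 0.0211 by limma. Calls at such differences rest on rounding where there is no variance, and nothing is read from them. Signal near background limits every member but miR-34a-5p in DOX.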
